A study of Mus musculus with 12 samples.

Results

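To ask how the expression profile of splenic cells labelled as CD8 T cells differs after stimulation through the T cell receptor (TCR) or with a bacterial product, 3 libraries of cells treated with an antibody to CD3 (αCD3) were compared directly with 3 libraries of cells treated with lipopolysaccharide (LPS). These 6 libraries were chosen by the group in their labels, out of 12 in the series, and all 12122 genes that passed the expression filter were tested. All cells were labelled as CD8 T cells, taken with magnetic beads (MojoSort) from the spleens of C57BL/6 mice, which the labels give as 6 weeks old and the methods, for all experiments, as older. They were cultured for 6 hours with αCD3 or LPS at 1 µg/ml, a dose that another field of the labels gives in mg/ml, so its unit is uncertain. The other libraries were 3 of untreated cells (Naïve), whose level is given as background, and 3 of cells treated with interferon gamma (IFNγ). No gene was altered in any group, and the labels do not say whether the replicates came from separate animals or cultures, so p-values measure the spread between these libraries, which may be technical.

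CD3 is the signalling part of the TCR. When it is cross-linked, the kinases Lck and Zap70 phosphorylate adaptors such as Lat, and the signal reaches the transcription factors NFAT, AP-1 and NF-κB, which switch on immediate early genes and the costimulatory and inhibitory receptors of activated T cells. LPS is sensed by Toll-like receptor 4 (Tlr4) with its co-receptor Cd14, best known from macrophages, dendritic cells and B cells, and signals through adaptors to NF-κB and to interferon regulatory factors, which drive inflammatory cytokines, chemokines and interferon-stimulated genes. Both routes thus share NF-κB, and they differ in the kinases and cell types that carry the signal.

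Total estimated counts were 10.2 M to 27.6 M per library, with at least 1 count for 14348 to 15372 genes. Levels are given in CPM, each count relative to the scaled total of its library. Replicate 1 of both groups stood apart from replicates 2 and 3. The summed level of 7 erythroid marker genes was 406 CPM in αCD3 replicate 1 against 1579 and 1297 in the others, and 479 in LPS replicate 1 against 2887 and 1928, and interferon-stimulated genes were also lower in both. The erythroid sums of Naïve libraries ran from 337 to 1868 CPM, and Naïve replicate 1 was low too, with the globin gene Hba-a2 at 199 CPM against 1098 and 845 CPM. Of the 31-base words of Hba-a2, 7.4% were unique among transcripts, so its own level is uncertain. The labelled cell type was checked against 10 genes listed as CD8 T cell markers, of which only Cd8a and Cd8b1 tell CD8 from other T cells. These genes were expressed in every library, summing to 2281 to 2458 CPM in αCD3, 1346 to 1553 CPM in LPS and 1688 to 1885 CPM in Naïve libraries. The 4 CD4 T cell markers summed to 79.2 to 94.7 CPM in αCD3 and 66.9 to 80.8 CPM in LPS. Markers of other spleen cells were expressed too. The 14 B cell markers, among them Cd79a, Ms4a1 and Pax5, summed to 2616 to 3088 CPM in αCD3, 2269 to 3431 CPM in LPS and 3761 to 4114 CPM in Naïve libraries. The 16 macrophage and monocyte markers summed to 852 to 1608 CPM in αCD3 and 1067 to 1704 CPM in LPS. Most of this came from Mpeg1, at 292 to 665 and 429 to 803 CPM, and Cybb, at 177 to 458 and 290 to 347 CPM. The 10 dendritic cell markers summed to 481 to 1022 and 764 to 1592 CPM, most of it from Irf8, which alone was at 391 to 899 and 643 to 1453 CPM. In such bulk samples, fewer cells of a type and less RNA per cell cannot be told apart, and the part of other cell types in the differences below was not tested.

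αCD3 and LPS differed in 2351 genes, 19.4% of those tested, at an adjusted p under 0.05 in the quasi-likelihood test of edgeR, here referred to as called. Of these, 1168 (9.64% of those tested) were higher in αCD3 and 1183 (9.76%) were higher in LPS. The called differences had a median size of 0.61 on the log2 scale, and 616 genes differed at least 2-fold, 305 of them higher in αCD3 and 311 higher in LPS. The median log2 fold change (αCD3 over LPS) of all tested genes was -0.01. With the replicate number as a block 4202 genes were called (2001 higher in αCD3, 2201 higher in LPS), and without replicate 1 of either group 2095. When libraries were scaled by their size only, without TMM factors, 68.8% rather than 49.7% of the calls were in the direction of αCD3, so the even split depends on the scaling.

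**Figure D1:**
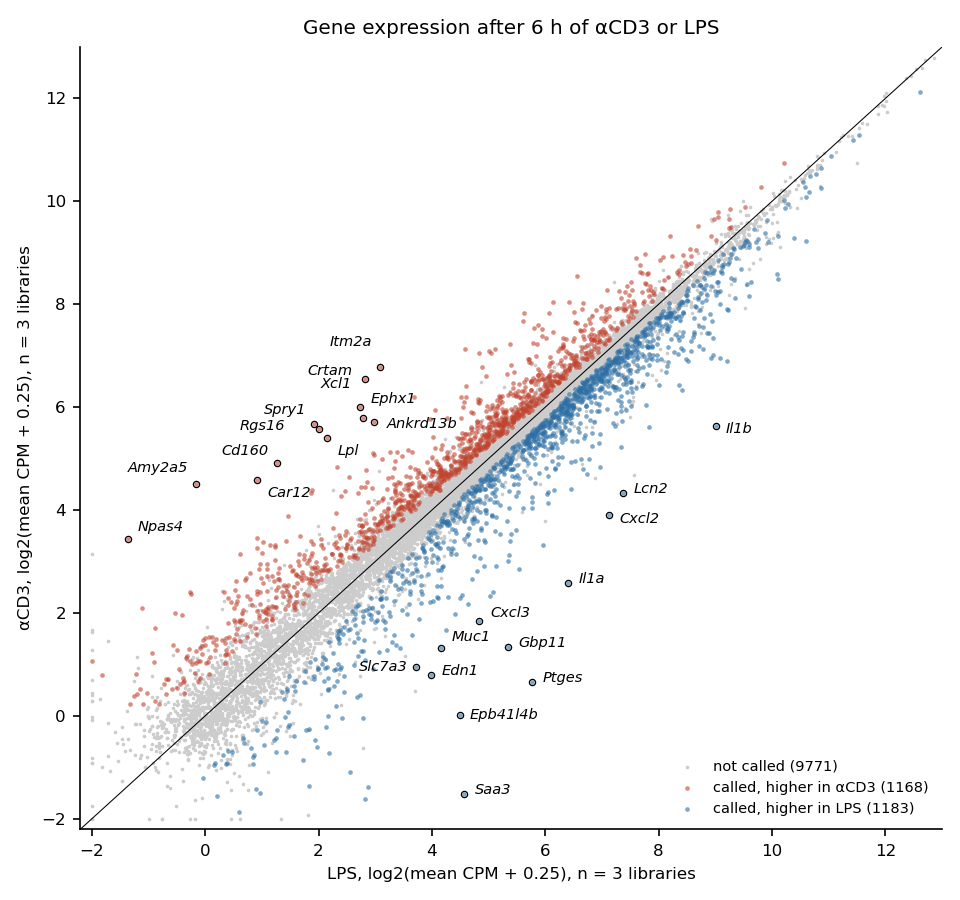
Mean level of each of the 12122 tested genes in LPS (x axis) and αCD3 (y axis), both as log2(mean CPM + 0.25) of 3 libraries, with called genes in colour, the 24 genes with the largest differences under the naming rule circled, and the line of equal levels. Most genes lie along the line, with 1168 called genes above it and 1183 below it.

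The 12 genes with the largest excess in αCD3 were of mixed function, among them Npas4, Cd160, Crtam, Rgs16 and Spry1. Npas4, a transcription factor switched on by calcium signals and best known in neurons (chromosome 19, 4984355 to 4990316, GRCm38), was at 11.1, 10.2 and 10.5 CPM in the αCD3 libraries and at 0, 0.252 and 0.161 CPM in the LPS libraries. The LPS libraries were at or near 0, with 567 counts in αCD3 against 5 in LPS, a ratio of 73.2 (95% exact counting interval 31.2 to 226, which covers counting error only; log2 fold change 6.10 ± 0.92 SE, adjusted p = 0.00131, and 6.76 without LPS replicate 2). Cd160, a receptor of the immunoglobulin family on cytotoxic lymphocytes (chromosome 3, 96798763 to 96829351), was at 29.7, 32.3 and 27.8 CPM against 1.94, 2.19 and 2.33 (3.79 ± 0.22, adjusted p = 3.9e-06). Crtam, an adhesion receptor of activated CD8 T cells (chromosome 9, 40969691 to 41004628), was at 81.7, 110.03 and 88.0 CPM against 6.95, 5.88 and 7.48 (3.78 ± 0.25, adjusted p = 8.93e-06). For both receptors the LPS libraries lay near the Naïve mean of 3.10 ± 0.53 CPM for Cd160 and 7.80 ± 2.56 CPM for Crtam (SD, n = 3).

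Rgs16, which shortens signals from G protein-coupled receptors, was at 56.8, 54.4 and 41.0 CPM in αCD3 and 4.09, 2.86 and 3.70 CPM in LPS (3.84 ± 0.21, adjusted p = 3.9e-06). Spry1, an inhibitor of the Ras and MAP kinase pathway, was at 48.7, 50.3 and 43.4 CPM against 4.50, 3.78 and 3.06 (3.66 ± 0.18, adjusted p = 1.75e-06). Each of these inhibitors was near its Naïve mean in LPS (4.83 CPM for Rgs16 and 3.53 CPM for Spry1). Of the 31-base words of Spry1, 76.9% were unique, and of those of Xcl1 below, 85.8%. Xcl1, a chemokine made by activated CD8 T cells that attracts cross-presenting dendritic cells, was at 59.7, 71.6 and 60.3 CPM in αCD3 and 3.48, 7.14 and 8.53 CPM in LPS (3.30 ± 0.28, adjusted p = 2.77e-05). Itm2a, a membrane protein (3.75 ± 0.25), the carbonic anhydrase gene Car12 (3.86 ± 0.26) and Ankrd13b (2.76 ± 0.17), with adjusted p between 4.12e-06 and 8.93e-06, were also higher in αCD3, with Naïve means of 13.4, 0.880 and 9.78 CPM. Against Naïve cells, LPS libraries were lower for Itm2a (-0.71 ± 0.24, adjusted p = 0.0332) and higher for Car12 (0.85 ± 0.29, adjusted p = 0.0321).

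For Lpl and Ephx1, also on this side, the LPS libraries lay below the Naïve level. Lpl, lipoprotein lipase, was at 36.9, 38.9 and 49.9 CPM in αCD3, 3.99, 3.36 and 5.23 CPM in LPS and 61.3 ± 25.3 CPM in Naïve cells (SD, n = 3). Ephx1, microsomal epoxide hydrolase, was at 69.5, 44.3 and 51.5 CPM in αCD3, 9.30, 5.30 and 5.23 CPM in LPS and 38.2 ± 3.65 CPM in Naïve cells. Relative to Naïve cells, LPS lowered both (log2 fold change -3.86 ± 0.35 for Lpl, adjusted p = 1.58e-05, and -2.55 ± 0.23 for Ephx1, adjusted p = 1.28e-05). For αCD3 the same values were -0.55 (adjusted p = 0.154) and 0.54 (adjusted p = 0.0532). The pancreatic amylase gene Amy2a5 also met the naming rule (5.09 ± 1.35, adjusted p = 0.0249), but 37.7% of its 31-base words were unique among transcripts, and its call was lost under 7 of 14 alternatives. Its value was 5.75 without LPS replicate 2. For comparison, αCD3 differed from Naïve in 38.6% of tested genes and LPS in 49.3%.

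The 12 genes with the largest excess in LPS were of mixed function too, among them Saa3, Ptges, Il1a, Il1b and Cxcl2. Saa3, an acute phase protein of macrophages (chromosome 7, 46711998 to 46715700), was at 5.01, 31.8 and 33.9 CPM in LPS and at 0.212, 0 and 0.0805 CPM in αCD3. This is 849 counts against 7, a ratio of 188 (95% exact counting interval 90.8 to 469; log2 fold change -7.45 ± 1.05, adjusted p = 9.3e-04). The log2 fold change was -8.87 without αCD3 replicate 1 and -9.35 without replicate 1 of either group. Ptges, the inducible synthase of prostaglandin E (chromosome 2, 30889471 to 30929863), was at 15.7, 72.5 and 75.1 CPM against 1.305, 1.41 and 1.29 (-5.35 ± 0.62, adjusted p = 2.87e-04). In both genes LPS replicate 1 was the lowest of the LPS libraries.

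The cytokines interleukin 1α and 1β, which start inflammation, had the same pattern. Il1b was at 157, 650 and 733 CPM in LPS and 41.0, 48.4 and 57.8 CPM in αCD3 (-3.39 ± 0.48, adjusted p = 9.79e-04), and Il1a at 24.0, 102 and 127 CPM against 4.20, 5.96 and 7.17 CPM (-3.90 ± 0.55, adjusted p = 8.83e-04). Cxcl2, a chemokine that attracts neutrophils, was at 107, 141 and 169 CPM in LPS and 16.1, 13.9 and 14.4 CPM in αCD3 (-3.22 ± 0.19, adjusted p = 3.9e-06). Its αCD3 libraries lay below the Naïve mean of 24.1 ± 4.82 CPM (SD, n = 3). Lcn2, which binds bacterial siderophores, was at 161, 158 and 179 CPM in LPS and 26.8, 17.3 and 15.9 CPM in αCD3 (-3.04 ± 0.32, adjusted p = 1.55e-04), a gap in which LPS replicate 1 did not stand apart.

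Of the other genes on this side, Slc7a3, a transporter of cationic amino acids, was at 13.1, 12.2 and 13.5 CPM in LPS and 1.38, 2.23 and 1.45 CPM in αCD3 (-2.96 ± 0.21, adjusted p = 9.54e-06). Its LPS libraries lay close together, and its αCD3 libraries lay around the Naïve mean of 1.80 CPM. Epb41l4b, a membrane-skeleton protein (-4.80 ± 0.60), Edn1, the vasoconstrictor endothelin (-3.49 ± 0.71), the membrane mucin Muc1 (-2.99 ± 0.50) and the chemokine Cxcl3 (-3.15 ± 0.84) were also higher in LPS, with adjusted p between 3.97e-04 and 0.0255. For each of these 4 genes LPS replicate 1 was the lowest LPS library. The call of Cxcl3 was lost under 6 of 14 alternatives, and its value was -3.81 without αCD3 replicate 3. Against its Naïve mean of 25.8 ± 18.6 CPM (SD, n = 3), Cxcl3 was lower in αCD3 (-2.999 ± 0.84, adjusted p = 0.0174), and its LPS value was 0.16 ± 0.73 (adjusted p = 0.878). Gbp11 (-4.17 ± 0.56, adjusted p = 6.7e-04) is annotated as a polymorphic pseudogene, and 65.7% of its 31-base words were unique, so its level is uncertain.

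**Figure D2:**
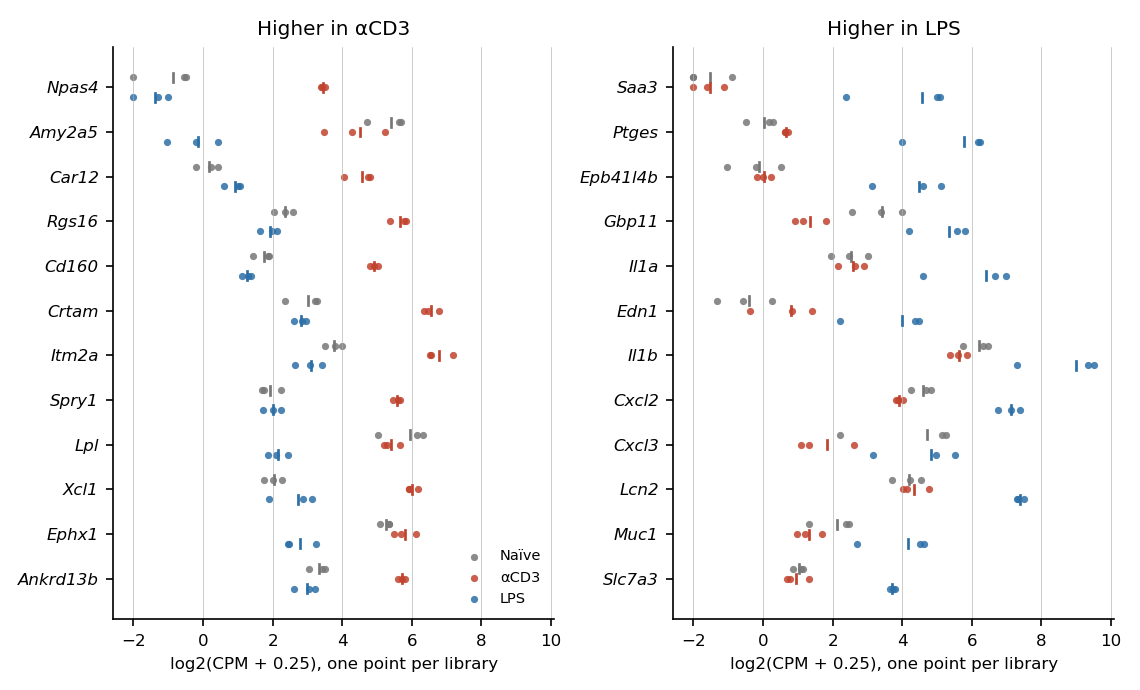
Level of the 24 genes in each library as log2(CPM + 0.25), with a point per library of Naïve (grey), αCD3 (red) and LPS (blue) cells and a tick at the log2 of the group mean. The genes were chosen for groups that do not overlap, and the LPS points of Saa3, Ptges, Epb41l4b, Il1a and Il1b spread more widely than those of Lcn2, Cxcl2 and Slc7a3.

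To describe the difference by function, 24 lists of 522 tested genes were read in the same fit. Of these genes 196 (37.5%) were called, 65 of them higher in αCD3 and 131 higher in LPS. The lists were chosen for these treatments with earlier results of the data known, so a share above the background of 19.4% says nothing of genes at large. Named members are the up to 4 called ones with the lowest adjusted p of a list, and any other member named below, cell type markers included, was chosen after its values were seen. Reads were counted without a stated strand, so reads from sequence shared with a gene on the opposite strand cannot be assigned for certain. Nab2 overlaps 3 such genes, and 62.1% of its 31-base words were unique among transcripts. Zap70 and Il1b each overlap 1, and 100% of their words were unique. List by list, the receptors of T cells and the proximal TCR pathway were on the αCD3 side, and NF-κB regulators, cytokines, inflammatory effectors and ligands of antigen-presenting cells were on the LPS side.

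**Figure D3:**
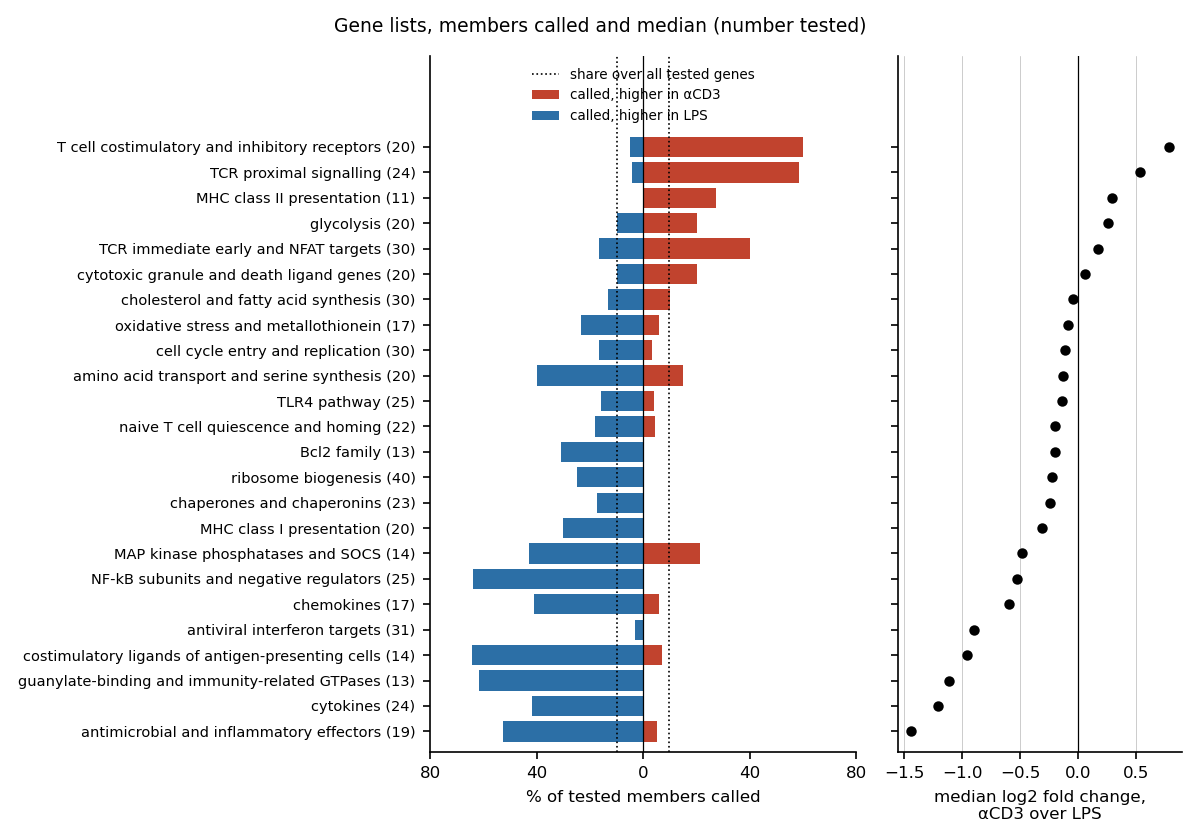
Share of the tested members of each list that were called higher in αCD3 (red, to the right) or in LPS (blue, to the left), with the shares over all tested genes as dotted lines, and the median log2 fold change (αCD3 over LPS) of each list. Medians run from 0.78 for T cell costimulatory and inhibitory receptors to -1.44 for antimicrobial and inflammatory effectors.

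The genes of proximal TCR signalling were mostly higher in αCD3. Of 24 members 14 were called higher in αCD3 and 1 higher in LPS, with a median log2 fold change of 0.53, against -0.01 over all genes. Zap70, the kinase that binds the phosphorylated CD3 chains, was at 240, 217 and 223 CPM in αCD3 and 60.9, 66.6 and 73.4 CPM in LPS (1.76 ± 0.08, adjusted p = 1.75e-06). The αCD3 libraries were all above and the LPS libraries all below the Naïve mean of 81.5 CPM. The CD3 chain genes Cd3g (1.27 ± 0.10, adjusted p = 1.56e-05) and Cd3e (0.85 ± 0.08, adjusted p = 7.78e-05) were between their αCD3 and LPS levels in Naïve cells. Cd3g was at 259, 221 and 242 CPM in αCD3, 109, 88.6 and 102 CPM in LPS and 152 ± 9.53 CPM in Naïve cells (SD, n = 3). Cd8a, the chain that marks these cells, was at 313, 504 and 479 CPM in αCD3 and 196, 188 and 231 CPM in LPS (1.08 ± 0.17, adjusted p = 0.00173), while its partner Cd8b1 ranged from 325 to 414 and from 284 to 387 CPM (0.15 ± 0.12, adjusted p = 0.431). The member that was higher in LPS was Cd247, which encodes the zeta chain (-0.32 ± 0.08, adjusted p = 0.0132), of which 42.3% of 31-base words were unique, and its call was lost under 3 of 14 alternatives.

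Costimulatory and inhibitory receptors of T cells had the highest median of the 24 lists, 0.78, with 12 of 20 called higher in αCD3 and 1 higher in LPS. The CD8 T cell markers, which are not among these lists, had a median of 0.79. Cd5, which dampens TCR signals, was at 171, 123 and 128 CPM in αCD3 and 29.5, 20.1 and 21.8 CPM in LPS (2.57 ± 0.21, adjusted p = 2.76e-05). Cd28, the main costimulatory receptor, was at 227, 230 and 225 CPM against 65.7, 39.2 and 42.2 CPM (2.22 ± 0.21, adjusted p = 6.82e-05). For both, the αCD3 libraries were above the Naïve means of 48.0 CPM (Cd5) and 65.2 CPM (Cd28). The LPS libraries were below these means, except LPS replicate 1 for Cd28, which was close to its mean. Cd6, a relative of Cd5 (1.91 ± 0.16, adjusted p = 3.1e-05), the inhibitory receptor Lag3 (2.22 ± 0.25, adjusted p = 2.4e-04), the costimulatory receptors Cd27 (2.08 ± 0.23, adjusted p = 2.43e-04), Icos (1.18 ± 0.16, adjusted p = 7.01e-04) and Tnfrsf9 (1.99 ± 0.36, adjusted p = 0.00373) were also higher in αCD3. Pdcd1, which encodes PD-1, had a difference of 0.39 (95% interval 0.09 to 0.70, adjusted p = 0.0725, and 0.00896 with the replicate block). The exception was Cd200 (-1.14 ± 0.30, adjusted p = 0.0231), at 44.9, 128 and 91.1 CPM in LPS and 33.2, 46.3 and 41.0 CPM in αCD3, with overlapping libraries, and its call was lost without αCD3 replicate 1 or 3 or LPS replicate 2 or 3 and in a fit of the 6 libraries alone.

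Immediate early genes and NFAT targets split between the treatments. Of 30 members 12 were called higher in αCD3 and 5 higher in LPS, and the median was 0.17. The median was 0.02 without αCD3 replicate 1, 0.34 without αCD3 replicate 2 and 0.10 without LPS replicate 2, and the count in LPS was 3 without LPS replicate 2 or 3. Beside Spry1 and Crtam, the αCD3 side held Nab2, a co-repressor of the Egr factors, at 112, 87.9 and 92.6 CPM against 31.8, 32.6 and 28.3 CPM (1.66 ± 0.10, adjusted p = 3.9e-06). Of the 31-base words of Nab2, 62.1% were unique. Further members on this side were the Egr factors Egr2 (2.19 ± 0.18, adjusted p = 2.76e-05) and Egr1 (1.23 ± 0.21, adjusted p = 0.00252) and the nuclear receptors Nr4a2 (1.99 ± 0.25, adjusted p = 4.23e-04), Nr4a1 (1.20 ± 0.24, adjusted p = 0.00657) and Nr4a3 (1.08 ± 0.15, adjusted p = 7.97e-04). Nr4a1 is widely used as a reporter of TCR signals. Egr2 was at 43.0, 27.6 and 31.7 CPM in αCD3, 8.18, 6.89 and 7.56 CPM in LPS and 24.1 ± 4.46 CPM in Naïve cells (SD, n = 3), so that every LPS library was below and every αCD3 library above the Naïve mean.

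The 5 members that were higher in LPS included genes of the AP-1 family. Batf, an AP-1 factor of effector lymphocytes, was at 188, 248 and 243 CPM in LPS and 39.5, 53.5 and 53.6 CPM in αCD3 (-2.22 ± 0.15, adjusted p = 8.83e-06), with the αCD3 libraries near the Naïve mean of 43.6 ± 3.82 CPM (SD, n = 3). Jun was at 266, 623 and 596 CPM in LPS and 145, 188 and 152 CPM in αCD3 (-1.61 ± 0.27, adjusted p = 0.00236). Junb (-0.77 ± 0.10, adjusted p = 5.37e-04), Zbtb32 (-1.51 ± 0.37, adjusted p = 0.0167) and the early activation antigen Cd69 (-0.77 ± 0.19, adjusted p = 0.017) were the other members on this side, and the call of Cd69 was lost under the same alternatives as that of Cd200. For some genes known as hallmarks of T cell activation no difference was called. Il2ra, the high-affinity interleukin 2 receptor chain, was at 198, 392 and 356 CPM in αCD3 and 309, 584 and 465 CPM in LPS (95% interval of the log2 fold change -1.11 to 0.06, adjusted p = 0.199, and 0.0199 with the replicate block), and Myc had an interval of -0.56 to 0.09 (adjusted p = 0.308). Il2 itself was low in both, at 4.38 to 6.60 CPM in αCD3 and 4.19 to 9.41 CPM in LPS.

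**Figure D4:**
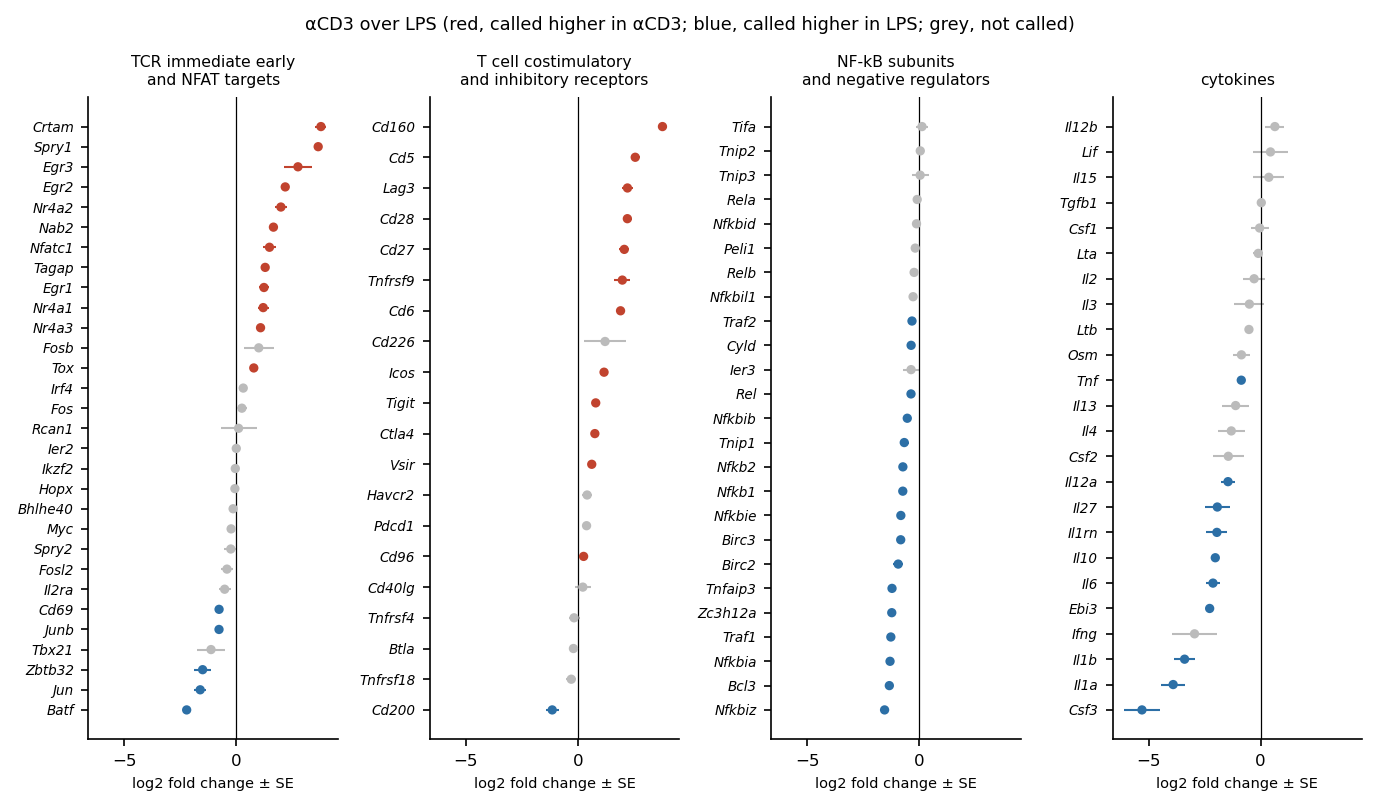
Log2 fold change of αCD3 over LPS ± SE for every tested member of 4 lists, from the fit over 12 libraries, with called members in red (higher in αCD3) or blue (higher in LPS) and the others in grey. Immediate early genes lie on both sides of 0, T cell receptors mostly to the right, and NF-κB regulators and cytokines mostly to the left.

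Of 25 NF-κB subunits and negative regulators, 16 were called higher in LPS and 9 were not called, and the median was -0.53. Nfkbiz, an IκB protein that assists transcription of secondary response genes, was at 386, 350 and 337 CPM in LPS, 121, 125 and 122 CPM in αCD3 and 108 ± 4.61 CPM in Naïve cells (SD, n = 3; -1.54 ± 0.06, adjusted p = 1.19e-06). Nfkbia, the inhibitor IκBα, was at 571, 587 and 609 CPM in LPS, 258, 234 and 226 CPM in αCD3 and 223 ± 10.2 CPM in Naïve cells (-1.30 ± 0.08, adjusted p = 3.9e-06). In both the 3 LPS libraries were close together, with replicate 1 among them, and the αCD3 libraries lay near the Naïve mean. The adaptor Traf1 (-1.26 ± 0.09, adjusted p = 1.49e-05) and the ubiquitin ligase Birc3 (-0.82 ± 0.06, adjusted p = 9.22e-06) were higher in LPS as well, and so were the deubiquitinase Tnfaip3 (-1.21 ± 0.09, adjusted p = 1.49e-05) and the subunit Nfkb1 (-0.73 ± 0.06, adjusted p = 3.34e-05). Rela, the main activating subunit, was not called (95% interval -0.30 to 0.13, adjusted p = 0.59).

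Promoter sequences were searched because these inhibitors are known as direct NF-κB targets. Windows from 250 bases before to 50 bases after each RefSeq start (GRCm38.p6) were found for 9635 of the tested genes, 12251 windows in all. A match to the NF-κB consensus, on either strand, was present for 14.2% of 233 genes called at least 2-fold higher in LPS, 6.84% of 234 genes called at least 2-fold higher in αCD3 and 6.2% of all genes with a window. The AP-1 motif TGANTCA was present for 13.7%, 7.69% and 6.34%, and the interferon-stimulated response element for 9.87%, 2.14% and 4.04%. The NFAT core GGAAAA, added after the other motifs were chosen, was present for 27.5%, 23.9% and 23.9%, and the motifs TGACGTCA (2.58%, 1.28% and 3.55%), TTCNNNGAA (10.7%, 6.84% and 8.42%), CACGTG (8.58%, 8.97% and 11.5%) and the CArG box (2.15%, 0.855% and 1.55%) were searched too. Genes of the 3 sets had 1.33, 1.35 and 1.27 windows on average, and matches may overlap each other. A match is a description of the sequence, not a shown binding site. In the NF-κB list, 12 of the 22 members with a window held a match.

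The 200 bases before the start are shown for Nfkbia (chr12:55492648-55492847, minus strand) and Tnfaip3 (chr10:19015411-19015610, minus strand), inhibitors of the pathway, and for Cxcl2 (chr5:90903699-90903898, plus strand), the chemokine with the lowest adjusted p. They are RefSeq sequences of GRCm38.p6, written 5′ to 3′ along the gene with matches to the NF-κB consensus in capitals, 29 bases before the start in Nfkbia, 125 and 12 bases before it in Tnfaip3, and 97 and 96 bases before it, overlapping, in Cxcl2.
Nfkbia: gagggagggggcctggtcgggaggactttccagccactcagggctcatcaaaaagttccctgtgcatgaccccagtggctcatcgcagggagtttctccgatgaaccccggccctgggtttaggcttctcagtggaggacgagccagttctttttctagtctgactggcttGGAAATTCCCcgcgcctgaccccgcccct
Tnfaip3: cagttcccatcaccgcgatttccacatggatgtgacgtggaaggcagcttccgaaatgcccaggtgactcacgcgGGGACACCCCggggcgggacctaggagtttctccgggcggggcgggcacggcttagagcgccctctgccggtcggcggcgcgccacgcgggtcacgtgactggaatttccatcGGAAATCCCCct
Cxcl2: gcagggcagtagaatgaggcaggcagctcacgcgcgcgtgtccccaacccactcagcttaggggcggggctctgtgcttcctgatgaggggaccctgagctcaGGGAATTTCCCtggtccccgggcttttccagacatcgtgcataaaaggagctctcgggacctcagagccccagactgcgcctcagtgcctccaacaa
Levels of all 3 genes were higher in every LPS library than in any αCD3 library, Tnfaip3 with 782, 813 and 792 CPM against 389, 311 and 331 CPM. Of all tested genes, 34.8% had αCD3 and LPS libraries that did not overlap, in either direction. Cxcl2 was named by a rule that requires this.

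Components of the TLR4 pathway itself differed little. Of 25 members 4 were called higher in LPS and 1 higher in αCD3, close to the background share, with a median of -0.14. The median was -0.25 without αCD3 replicate 2. The count in LPS was 9 with the replicate block, and 1 or 2 without αCD3 replicate 1, 2 or 3 or LPS replicate 2 or 3. The kinase gene Ikbke was at 404, 265 and 311 CPM in LPS and 188, 137 and 148 CPM in αCD3 (-1.05 ± 0.18, adjusted p = 0.0023), and the receptor-associated kinase Irak3 (-0.61 ± 0.16, adjusted p = 0.022) and Irak2 (-0.39 ± 0.11, adjusted p = 0.0293) were also higher in LPS, though Irak2 was called under 7 and Irak3 under 9 of 14 alternatives. Tlr4, the receptor, was lower in LPS, at 5.73, 4.29 and 5.87 CPM against 9.94, 12.7 and 10.95 CPM in αCD3 (1.07 ± 0.27, adjusted p = 0.0175) and 15.8 ± 5.87 CPM in Naïve cells (SD, n = 3), a call lost without αCD3 replicate 2, without LPS replicate 2 and with limma-voom. Its co-receptor Cd14, a macrophage marker, was at 36.6, 99.4 and 127 CPM in LPS and 16.5, 18.2 and 28.3 CPM in αCD3 (-2.07 ± 0.45, adjusted p = 0.0102), with LPS replicate 1 nearest to αCD3. It was the 1 of 16 macrophage and monocyte markers called higher in LPS, where 4 were called higher in αCD3 and the median was 0.13.

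Cytokine genes were called in 1 direction only in this fit, 10 of 24 higher in LPS, with a median of -1.21 that was -0.78 without αCD3 replicate 1 and -0.77 without LPS replicate 3. With the replicate block 16 were called, also higher in LPS. Without LPS replicate 1, and likewise without replicate 1 of either group, 12 were called higher in LPS and 1 higher in αCD3. Ebi3, a subunit of interleukins 27 and 35, was at 44.4, 41.4 and 36.6 CPM in LPS and 7.62, 9.84 and 7.97 CPM in αCD3 (-2.27 ± 0.15, adjusted p = 9e-06). Il10, the anti-inflammatory interleukin 10 (chromosome 1, 131019845 to 131024974), was at 40.1, 41.2 and 42.6 CPM in LPS, 8.85, 11.3 and 10.6 CPM in αCD3 and 11.5 ± 1.52 CPM in Naïve cells (SD, n = 3; -2.02 ± 0.16, adjusted p = 1.77e-05). In both the LPS libraries lay close together, unlike those of Il1a and Il1b. Tnf was above its Naïve mean of 16.1 CPM in both, at 58.1, 65.2 and 73.4 CPM in LPS and 30.9, 41.4 and 36.6 CPM in αCD3 (-0.86 ± 0.12, adjusted p = 8.52e-04). Il6 (-2.12 ± 0.31, adjusted p = 0.001) was higher in LPS. Ifng, the T cell cytokine interferon gamma, was at 8.69, 300.2 and 260.4 CPM in LPS and 4.34, 40.6 and 31.2 CPM in αCD3, with replicate 1 far below the others in both groups (-2.95 ± 1.02, adjusted p = 0.068, and 0.00806 with the replicate block).

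Among chemokines 7 of 17 were called higher in LPS and 1, Xcl1, higher in αCD3, with a median of -0.60. Ccl3, an inflammatory chemokine, was at 120.4, 168 and 198 CPM in LPS and 31.3, 38.2 and 42.0 CPM in αCD3 (-2.13 ± 0.18, adjusted p = 2.59e-05), and Ccl5 at 118, 184 and 183 CPM against 53.0, 62.0 and 66.6 CPM (-1.42 ± 0.16, adjusted p = 2.06e-04). The αCD3 libraries of Ccl5 were all below its Naïve mean of 86.5 CPM. When αCD3 replicate 1, LPS replicate 2 or LPS replicate 3 was left out, 4 chemokines were called higher in LPS. The median was -0.31 without αCD3 replicate 1, -0.30 without LPS replicate 3 and -0.91 without LPS replicate 1. Costimulatory ligands of antigen-presenting cells, chosen as partners of the T cell receptors above, were called higher in LPS for 9 of 14 members and higher in αCD3 for 1, with a median of -0.96. Icam1, the adhesion ligand of LFA-1, was at 339, 417 and 406 CPM in LPS and 164, 169 and 163 CPM in αCD3 (-1.23 ± 0.12, adjusted p = 6.22e-05). Cd40 was at 237, 420 and 366 CPM against 59.7, 96.3 and 86.5 CPM (-2.08 ± 0.25, adjusted p = 3.21e-04). The LPS levels of both were far outside the range of the αCD3 libraries. Cd83 (-0.67 ± 0.09) and Cd80 (-1.32 ± 0.18) were higher in LPS too, with adjusted p of 5.62e-04 and 5.84e-04, and the member on the αCD3 side was Icosl, the ligand of Icos (0.86 ± 0.19, adjusted p = 0.0106).

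B cell markers moved in both directions. Of the 14, 5 were called higher in αCD3 and 4 higher in LPS. Cd79a and Cd79b, the signalling chains of the B cell receptor, were higher in αCD3 (1.12 ± 0.16, adjusted p = 7.48e-04, and 1.21 ± 0.27, adjusted p = 0.0121), while Pax5, the B lineage factor, and Cd72 were higher in LPS (-0.73 ± 0.12, adjusted p = 0.00224, and -0.998 ± 0.22, adjusted p = 0.0105). Of the 31-base words of Cd72, 61.5% were unique. Ms4a1, which encodes CD20, was at 373, 465 and 454 CPM in αCD3 and 467, 454 and 417 CPM in LPS (95% interval -0.39 to 0.29, adjusted p = 0.857). Of the MHC class II genes 3 of 11 were called, 27.3% against 19.4% of all genes, all higher in αCD3, at a median of 0.29. The counts were 5, and 1 higher in LPS, with the replicate block, 5 without LPS replicate 1, and 3 and 1 without αCD3 replicate 1. The 3 called in the main fit were H2-Oa (0.90 ± 0.09, adjusted p = 6.85e-05), H2-DMb2 (0.61 ± 0.08, adjusted p = 3.25e-04) and H2-Ob (1.45 ± 0.23, adjusted p = 0.00185), which act in peptide loading and its control. Of the 31-base words of H2-DMb2, 63.4% were unique. Cd74, the invariant chain, had a log2 fold change of 0.00 (adjusted p = 0.996). Of 10 CD8 T cell markers 8 were called higher in αCD3 and 1, Bcl11b, higher in LPS (-0.50 ± 0.11, adjusted p = 0.00892).

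Antiviral interferon targets had lower fitted levels in αCD3, but 3.23% of them were called, against 19.4% of all genes. Replicate 1 stood apart in both groups. All 31 antiviral interferon targets had a lower fitted level in αCD3, with a median of -0.89, and 1 of them, Irf9, was called (-0.45 ± 0.11, adjusted p = 0.0145). With the replicate block 21 were called, all higher in LPS. Without replicate 1 of either group the adjusted p of Irf9 was 0.0629, so that 0 of the 31 were called by edgeR and 7 had an unadjusted p under 0.05, at a median of -0.60. The median was -0.49 without αCD3 replicate 1 and -1.38 without αCD3 replicate 2. With all libraries, DESeq2 called 1 and limma-voom 2, higher in LPS. Ifit1, an inhibitor of viral RNA translation, was at 62.1, 360 and 305 CPM in αCD3 and 616, 816 and 783 CPM in LPS (-1.61 ± 0.59, adjusted p = 0.0823, and 0.00856 with the block). Relative to the Naïve mean, the median over the list was 0.45 in αCD3 replicate 1, against 2.72 and 2.38 in replicates 2 and 3, and 2.70, 3.44 and 3.17 in the LPS libraries, on the scale of log2(CPM + 1). αCD3 replicate 1 thus lay near Naïve cells and the other 5 libraries did not.

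Guanylate-binding proteins and immunity-related GTPases, which attack vacuoles of intracellular microbes, were called higher in LPS for 8 of 13 members, with a median of -1.12. Gbp8 was at 19.4, 38.1 and 47.2 CPM in LPS and 6.95, 5.71 and 9.10 CPM in αCD3 (-2.28 ± 0.30, adjusted p = 6.62e-04), Gbp7 at 303, 580 and 542 CPM against 98.2, 239.7 and 183 CPM (-1.46 ± 0.31, adjusted p = 0.00849) and Gbp3 at 166, 311 and 272 CPM against 92.5, 148 and 123 CPM (-1.05 ± 0.21, adjusted p = 0.00699). In all 3 the lowest LPS library was replicate 1. Of the words of 31 bases, 68.9% were unique in Gbp8 and 85.3% in Gbp7. Without replicate 1 of either group 12 members were called higher in LPS, as with the replicate block. The count was 4 without αCD3 replicate 1, 3 without αCD3 replicate 3, LPS replicate 2 or LPS replicate 3, and 1 in a fit of the 6 libraries alone. MHC class I genes had 6 of 20 called, all higher in LPS, 30% against 19.4% of all genes in either direction. Among the 6 was H2-Q4 (-0.43 ± 0.07, adjusted p = 0.00183), of which 47.0% of 31-base words were unique. With the block 16 MHC class I genes were called higher in LPS, and with library size alone 2. The median of the list was -0.31, and -0.21 without αCD3 replicate 1. Without LPS replicate 1 the count was 11. It was 2 without LPS replicate 2, 3 without αCD3 replicate 1 or LPS replicate 3, and 1 without αCD3 replicate 3.

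**Figure D5:**
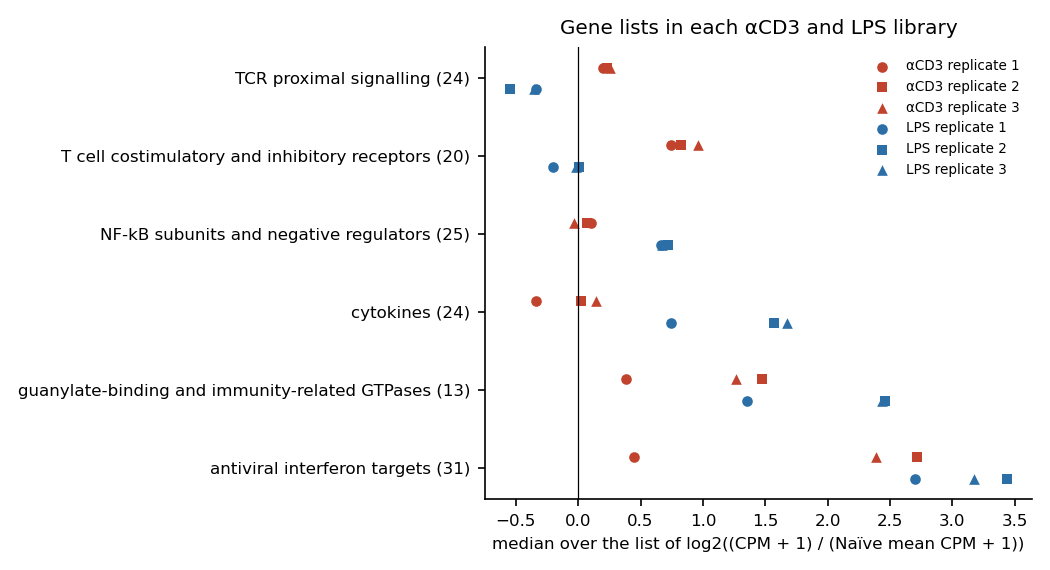
Median over each of 6 lists of log2((CPM + 1) / (mean Naïve CPM + 1)) in every αCD3 library (red) and LPS library (blue), with the replicate shown by the marker. αCD3 and LPS libraries are apart in proximal TCR signalling, T cell receptors, NF-κB regulators and cytokines, whereas in the 2 interferon-linked lists αCD3 replicate 1 lies near 0 at 0.38 and 0.45.

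Antimicrobial and inflammatory effectors had the lowest median, -1.44, with 10 of 19 called higher in LPS. Acod1, which makes itaconate, was at 316, 401 and 376 CPM in LPS, 86.0, 143 and 128 CPM in αCD3 and 46.4 ± 1.28 CPM in Naïve cells (SD, n = 3; -1.62 ± 0.17, adjusted p = 1.49e-04), so that every library of both groups was above the Naïve mean. The member on the αCD3 side was the protease Mmp9 (1.23 ± 0.33, adjusted p = 0.0233), whose call was lost without αCD3 replicate 1 or LPS replicate 2 or 3, with limma-voom and in a fit of the 6 libraries alone. Cytotoxic granule and death ligand genes had 4 of 20 called higher in αCD3 and 2 higher in LPS, in all 30% against 19.4% of all genes. Their median of 0.06 was -0.09 without LPS replicate 1 and -0.0040 without αCD3 replicate 2, and with the block 6 were called higher in LPS. Nkg7, a granule membrane protein, was at 81.2, 133 and 114 CPM in αCD3 and 20.8, 34.1 and 33.3 CPM in LPS (1.89 ± 0.25, adjusted p = 5.92e-04), while Stx11, a fusion protein of granule release, was higher in LPS (-0.86 ± 0.14, adjusted p = 0.00168). Gzmb, granzyme B, was at 54.2, 561 and 422 CPM in αCD3 and 35.3, 223 and 187 CPM in LPS (1.21 ± 0.83, adjusted p = 0.341, and 0.0653 with the replicate block). It was higher in αCD3 in each same-numbered pair, and replicate 1 was the lowest of both groups.

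Signalling feedback genes also divided. Of 14 MAP kinase phosphatases and SOCS proteins 6 were called higher in LPS and 3 higher in αCD3, with a median of -0.48. The count in αCD3 was 2 without LPS replicate 1 or 2 and 1 without LPS replicate 3. Dusp16 was at 54.9, 76.5 and 75.8 CPM in LPS and 33.4, 29.0 and 30.2 CPM in αCD3 (-1.16 ± 0.12, adjusted p = 1.38e-04). Socs3, an inhibitor of STAT3 signalling, was at 315, 657 and 656 CPM in LPS and 96.1, 125 and 149 CPM in αCD3 (-2.14 ± 0.30, adjusted p = 8.09e-04), with the αCD3 libraries below the Naïve mean of 292 ± 77.7 CPM (SD, n = 3). Dusp10 (-1.50 ± 0.21, adjusted p = 8.93e-04) and Dusp1 (-0.79 ± 0.12, adjusted p = 0.00122) were higher in LPS, and Dusp6, the phosphatase of ERK, was higher in αCD3 (1.16 ± 0.19, adjusted p = 0.00165).

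Of 22 genes of the naive, quiescent state 4 were called higher in LPS and 1 higher in αCD3, in all 22.7% against 19.4% of all genes. With the block 12 and 5 were called, beside 2201 and 2001 of all 12122 genes. The median was -0.20, and -0.12 without αCD3 replicate 2. Il7r, the interleukin 7 receptor, was at 247, 152 and 150 CPM in LPS, 89.5, 50.05 and 53.6 CPM in αCD3 and 282 ± 43.4 CPM in Naïve cells (SD, n = 3; -1.50 ± 0.25, adjusted p = 0.00252). Ccr7, the lymph node homing receptor, was at 816, 770 and 743 CPM in LPS and 536, 568 and 549 CPM in αCD3 (-0.49 ± 0.07, adjusted p = 7.99e-04). Il7r was below its Naïve mean in all 6 libraries, whereas Ccr7 was above its Naïve mean of 472 ± 32.7 CPM in all of them. The counts were 6 higher in αCD3 and 4 in LPS without LPS replicate 1, 1 and 8 without αCD3 replicate 1, and 1 and 2 without αCD3 replicate 3 or LPS replicate 3. The integrin chain Itga6 (-0.73 ± 0.18, adjusted p = 0.0182) was higher in LPS, and the repressor Bach2 was higher in αCD3 (0.61 ± 0.14, adjusted p = 0.0126). In the Bcl2 family 4 of 13 were called, 30.8% against 19.4% of all genes, and all were higher in LPS. They were led by the survival genes Bcl2l1 (-1.31 ± 0.18, adjusted p = 8.42e-04) and Bcl2a1b (-1.29 ± 0.19, adjusted p = 0.00108). Bcl2a1b belongs to a family of near-identical copies and 11.2% of its 31-base words were unique, so its count is uncertain.

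Among metabolic lists, amino acid transport and serine synthesis had 8 of 20 called higher in LPS and 3 higher in αCD3, at a median of -0.13 that was -0.21 without αCD3 replicate 1. Beside Slc7a3, the asparagine synthetase gene Asns was at 23.4, 25.4 and 30.8 CPM in LPS and 7.83, 8.52 and 8.78 CPM in αCD3 (-1.67 ± 0.15, adjusted p = 5.49e-05), and the neutral amino acid transporter Slc1a4 was at 28.4, 23.2 and 23.3 CPM against 9.87, 10.3 and 9.26 CPM (-1.34 ± 0.12, adjusted p = 5.41e-05). The transporters Slc38a1 (0.67 ± 0.08, adjusted p = 3.42e-04) and Slc1a5 (0.70 ± 0.11, adjusted p = 0.00174), which carry glutamine, were higher in αCD3, so that transporters lay on both sides. Of the glycolysis genes 30% were called, against 19.4% of all genes. They had 4 of 20 called higher in αCD3, among them Pgk1 (0.47 ± 0.12, adjusted p = 0.0205) and Pfkp (0.42 ± 0.10, adjusted p = 0.0172), and 2 higher in LPS, the glucose transporter Slc2a1 (-0.30 ± 0.06, adjusted p = 0.00507) and the hexokinase Hk2 (-0.998 ± 0.23, adjusted p = 0.0116). That count was not stable, since 9 were called higher in αCD3 with the block and without αCD3 replicate 1, and 2 without LPS replicate 1 and 1 without LPS replicate 2, while without αCD3 replicate 2 or 3 the only 2 called members were higher in LPS. Of the 31-base words of Pgk1, 45.3% were unique.

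Lists of growth, stress and lipid genes had medians between -0.24 and -0.04. Ribosome biogenesis factors had 10 of 40 called, 25% against 19.4% of all genes, all higher in LPS and at a median of -0.23. With the block 23 were called higher in LPS, and with library size alone 4, beside 1 higher in αCD3. Rrp9, a processing factor of ribosomal RNA, was at 175, 203 and 182 CPM in LPS, 122, 148 and 135 CPM in αCD3 and 55.0 ± 0.66 CPM in Naïve cells (SD, n = 3; -0.47 ± 0.09, adjusted p = 0.00617), so that every library of both groups was above the Naïve mean. The median was -0.14 without αCD3 replicate 1, and the count was 2 to 5 without LPS replicate 2 or 3 or αCD3 replicate 1 or 3. Chaperones had 4 of 23 called, all higher in LPS, among them the endoplasmic reticulum chaperone Hspa5 (-0.60 ± 0.15, adjusted p = 0.017). This was 17.4%, against 19.4% of all genes in either direction and 9.76% higher in LPS. With the block 17 were called higher in LPS, beside 2201 of all 12122 genes, and with library size alone 2. The count of chaperones was 7 without LPS replicate 1, 2 without αCD3 replicate 3, and 0, with 4 at an unadjusted p under 0.05, without αCD3 replicate 1, LPS replicate 2 or LPS replicate 3. Cell cycle genes had 5 of 30 called higher in LPS (9 with the block, 1 to 3 without αCD3 replicate 1 or 3 or LPS replicate 2 or 3, and 8 without LPS replicate 1) and Mcm6, a subunit of the replicative helicase, higher in αCD3 (0.37 ± 0.07, adjusted p = 0.00539), a total near the background share. Cyclin D2 (Ccnd2) was at 1064, 1611 and 1354 CPM in LPS and 386, 795 and 691 CPM in αCD3 (-1.11 ± 0.32, adjusted p = 0.0362), a call lost without αCD3 replicate 1 or 3 or LPS replicate 2 or 3, without replicate 1 of both groups together, with no filter on low counts and in a fit of the 6 libraries alone. Of the oxidative stress genes 29.4% were called, against 19.4% of all genes. They had 4 of 17 called higher in LPS, led by Nfe2l2 (-0.49 ± 0.08, adjusted p = 0.00242), and 1 higher in αCD3, catalase (Cat, 0.55 ± 0.16, adjusted p = 0.0358), a call lost under the same alternatives as that of Cd200. With the block these counts were 6 and 3. Cholesterol and fatty acid synthesis genes had 4 of 30 called higher in LPS and 3 higher in αCD3, near the background share, with a median of -0.04 that ranged from -0.11 without LPS replicate 3 to 0.05 without LPS replicate 1. With the block 10 and 4 were called, and the total ranged from 1 to 6 when 1 library of either group was left out.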

How the data were processed

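Gene expression was measured by sequencing mRNA libraries (INCPM mRNA Seq, per the labels) made from total RNA, in 12 libraries of 4 groups with 3 replicates each. The authors deposited 1 matrix of estimated counts per gene symbol. Their notes name kallisto (version not given in the sources used here), the mouse build mm10, trimmed mean of M values (TMM) scaling and DESeq2 1.24.0. Between 8757 and 9980 genes per library held fractional estimates, which were rounded to whole numbers. No column of the matrix was left unassigned.

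The members, gene lists and tests were chosen with earlier results of these data known. Genes were filtered with filterByExpr, scaled with TMM and fitted over all 12 libraries with group as the only term in edgeR 4.0.16 (robust quasi-likelihood test, two-sided, R 4.3.3). Adjusted p-values are those of Benjamini and Hochberg across the 12122 genes that passed the filter, with calls under 0.05. SE is the absolute log2 fold change divided by the square root of F. Intervals are at 95%, and counting intervals cover counting error only, as reads are not independent molecules. Alternatives were RLE scaling, library size alone, no filter, DESeq2 1.42.0, limma-voom (limma 3.58.1), a replicate block, a fit of the 6 libraries alone, each library left out and, chosen after seeing the data, replicate 1 left out of both groups. The script was tested on simulated data.

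Replicate numbers come from the sample titles. Same-numbered αCD3 and LPS libraries deviated together from their group means (correlations 0.401, 0.303 and 0.141). Differently numbered ones correlated at -0.354 to 0.0786. The numbers may thus pair the samples, which the labels do not state. Main values come from the fit without this pairing, and blocked values are given where they change a call.

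Named genes were the 12 with the largest log2 fold change in each direction among called genes whose higher group averaged 10 CPM or more, whose groups did not overlap and whose symbol was not that of a predicted gene, and up to 4 called members per list by adjusted p. Members against a list's direction, uncalled members and cell type markers were named after their values were seen. Coordinates, overlaps and the share of 31-base words unique among transcripts come from GENCODE M21 (GRCm38), matched by symbol for 20620 of 20778 symbols. Promoter windows come from RefSeq.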

Additional observations from a re-analysis of the deposited data

How the results depend on the processing

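The count of 2351 genes called between αCD3 and LPS rose to 4202 with the replicate number as a block (2001 higher in αCD3 and 2201 higher in LPS), and 2349 of the 2351 were among these. It was 1440 in a fit of the 6 libraries alone (765 and 675) and 1429 to 2590 when 1 library was left out, with 719 to 1296 higher in αCD3 and 710 to 1294 higher in LPS. The count fell below the main one by more than 1.5-fold without αCD3 replicate 3 (1558), LPS replicate 2 (1429) or LPS replicate 3 (1508). With library size alone 766 genes were called higher in LPS and 1691 higher in αCD3, and the median over all genes moved from -0.01 to 0.09. Of the list members, 196 were called, 330 with the block and 135 to 221 with 1 library left out. Counts of 2662 with DESeq2, 2398 with limma-voom, 2333 with RLE scaling, 2023 of 17117 genes with no filter and 2095 without replicate 1 of either group stayed within 1.5-fold of the main one, as did all counts for αCD3 and LPS against Naïve. The 24 genes with the largest differences gave 336 values under 14 alternatives. All kept their direction, and 13 were not called, 7 for Amy2a5 and 6 for Cxcl3. The block changed no other printed call than those given beside the results. The causes of these changes were not tested. With 3 libraries a group and a median SE of 0.14 on the log2 scale, small differences may have been missed.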
